A study of Mus musculus with 6 samples.

Results

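The insulin-like growth factor (IGF) genes of muscle stem cells (MuSCs) were examined in injured mouse muscle, with and without treatment by resolvin D1 (RvD1), a lipid mediator made from docosahexaenoic acid that promotes the resolution of inflammation. The genes were taken by name and comprise 1 ligand (Igf1), 3 receptors (Igf1r, Insr, and Igf2r), and 6 binding proteins (Igfbp2 to Igfbp7). These are 10 of the 49671 genes in the files, and all 10 were among the 14494 whose counts allowed a test.

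MuSCs were sorted from the tibialis anterior (TA) muscles of 6 female C57BL/6 mice aged 4 to 6 months at day 3 after both muscles received 50 μL of 1.2% BaCl2, a salt that kills myofibers. Injections were given daily into the peritoneum, with 100 ng of RvD1 in 3 mice and with the vehicle, saline with 0.1% ethanol, in 3 mice. Each mouse gave 1 library, in which its left and right TA muscles were pooled, so replicates are separate animals. The sort kept cells with CXCR4 and β1-integrin on the surface and removed those with Sca-1, CD45, CD11b, or Ter119. The sample labels add CD31, an endothelial antigen, to the markers selected against, whereas the antibodies listed in the methods of the study do not include it. Uninjured muscle was not analysed here, so that all values describe cells after injury, and RvD1 was given systemically, not into the muscle.

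IGF1 and IGF2 are small secreted proteins related to insulin. They bind the IGF1 receptor, a tyrosine kinase that signals through insulin receptor substrates, PI3-kinase, and Akt to promote growth and survival, and the closely related insulin receptor responds to insulin and IGF2. The IGF2 receptor has no kinase and carries IGF2 to the lysosome. The high-affinity binding proteins hold IGFs outside the cell and either block or prolong their action, and IGFBP7 is a related protein that binds IGFs weakly. In regenerating muscle IGF1 is made by macrophages, fibroblasts, and muscle cells, and it promotes both the proliferation and the differentiation of myoblasts.

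Total expected counts, the reads that the quantification assigned to each gene, were between 17962025 and 28149176 in the RvD1 libraries, against 16148026 to 18755643 in the vehicle libraries. Markers of the sorted cell type were present, and the integrin gene Itga7 reached 457.6 to 586 TPM over the 6 libraries. The MuSC marker Pax7 was far lower, at 4.03 to 8.5 TPM, and the sort antigen gene Cxcr4 was at 11.7 to 29.8 TPM. The differentiation marker Myog averaged 977 TPM. TPM is a level adjusted for transcript length and scaled to the same total in each library. RvD1 replicate 1 stood apart in several marker lists. Its 10 proliferation markers summed to 1363 TPM against 1735 to 1988 TPM in the other 5 libraries, and its 14 fibro-adipogenic and fibroblast markers summed to 2893 TPM against 1309 to 1785 TPM. Fold changes, their counts by direction, and correlations are therefore also given without this library.

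The binding proteins were the most abundant of the 10 genes. Averaged over the 6 libraries, Igfbp2 was at 141 TPM, Igfbp5 at 136 TPM, Igfbp7 at 100.4 TPM, Igfbp3 at 98.4 TPM, Igfbp4 at 65.4 TPM, and Igfbp6 at 34.0 TPM. Igf2r followed at 32.9 TPM, and Igf1, Insr, and Igf1r were lowest at 7.18, 6.27, and 5.31 TPM. The ranges of neighboring genes in this order overlapped except at 1 step, from Igf2r (24.6 to 46.8 TPM) down to Igf1 (3.52 to 12.1 TPM). Igfbp3 exceeded Igfbp4, and Igfbp4 exceeded Igfbp6, in 6 of 6 libraries. Igfbp2 exceeded Igfbp5 in only 4 of 6, and the pairs Igfbp7 and Igfbp3, Igfbp6 and Igf2r, and Igf1 and Insr were each divided 3 to 3.

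**Figure D1:**
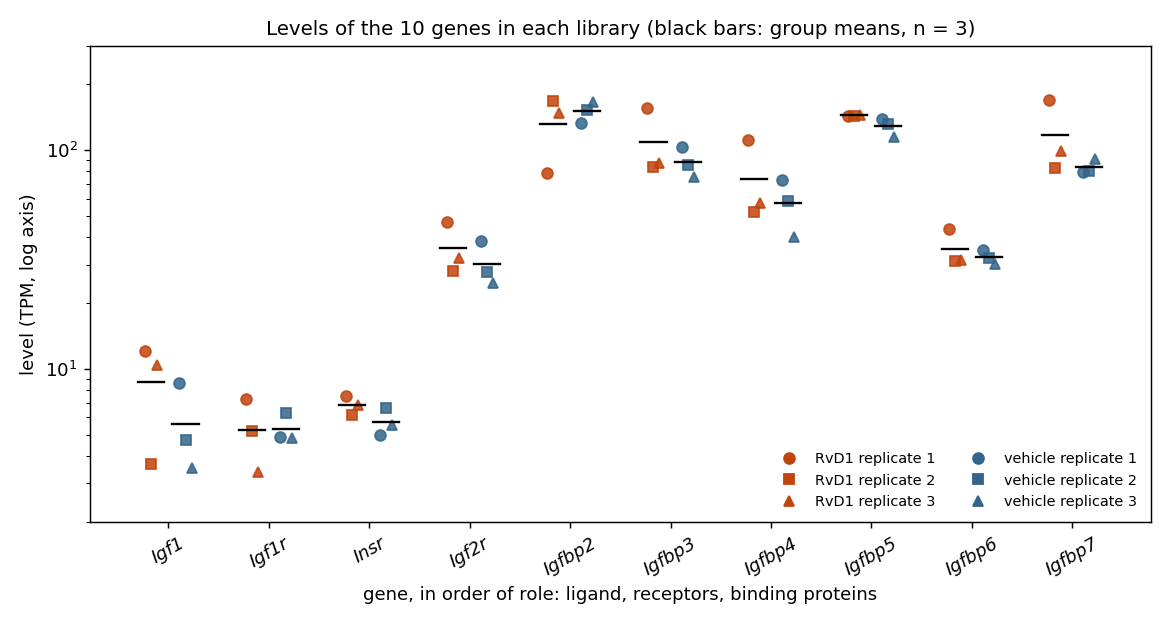
Level of each gene in each library in TPM on a log axis, with RvD1 in orange, vehicle in blue, a symbol for each replicate number, and black bars at the group means (n = 3). Igf1, Igf1r, and Insr lie between 3.36 and 12.1 TPM, below every library of the other 7 genes, and RvD1 replicate 1 stands above or, for Igfbp2, below the other libraries for most genes.

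None of the 10 genes had a Benjamini-Hochberg adjusted p under 0.05 in edgeR's quasi-likelihood test. The same was true of all 14494 genes tested, where 0 genes (0%) passed and the smallest adjusted p was 0.971. At an unadjusted p under 0.05 there were 0 of the 10 genes, beside 503 of all genes (3.47%, with 1.83% higher and 1.64% lower in the RvD1 group). The fitted log2 fold change of RvD1 over vehicle was above 0 for 9 of the 10 genes, beside 53.5% of all genes tested, with a median of 0.14 for the 10 genes and 0.01 for all. Without RvD1 replicate 1, it was above 0 for 5 and below 0 for 5 of the 10 genes, with a median of −0.03. Counts scaled to library size by edgeR's TMM method (CPM) overlapped between the groups for each of the 10 genes, whereas the groups did not overlap for 9.62% of all genes, with RvD1 higher for 4.8% and lower for 4.83%. On log2(TPM + 1), the difference was above 0 for 8 of the 10 genes, beside 67.9% of all genes, and the median over all genes moved from 0.01 to 0.077.

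**Figure D2:**
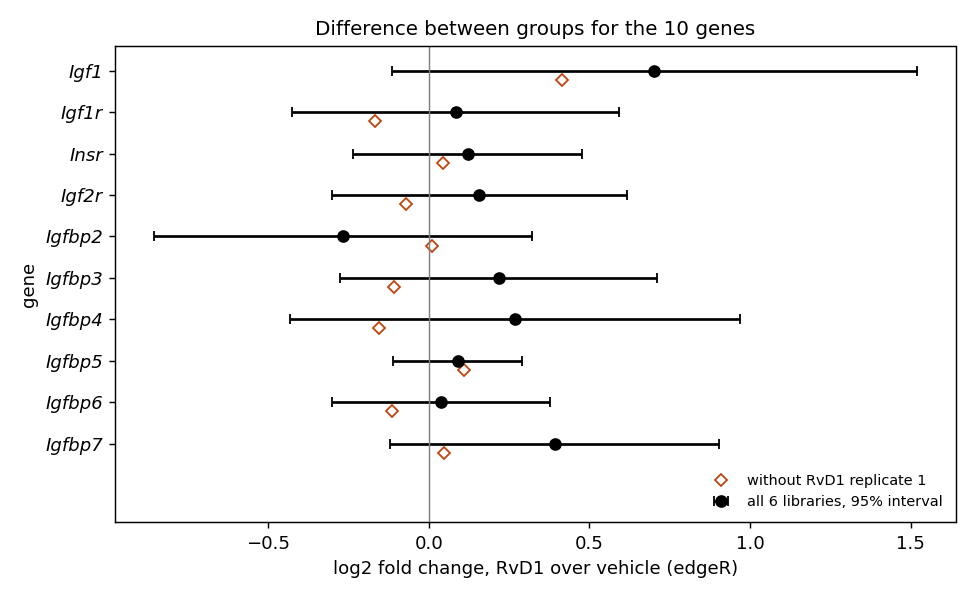
Fitted log2 fold change of RvD1 over vehicle for each gene (black points, 6 libraries, with 95% intervals from edgeR) and the same value without RvD1 replicate 1 (orange diamonds). Every interval includes 0, and the diamonds of Igf1r, Igf2r, Igfbp2, Igfbp3, Igfbp4, and Igfbp6 lie on the other side of 0 from the points.

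Igf1, the ligand (ENSMUSG00000020053, chromosome 10 of GRCm38, 87858265 to 87937042), had the largest fold change of the 10 genes. In RvD1 replicates 1, 2, and 3 it stood at 26.3, 8.60, and 23.5 CPM, and vehicle replicates 1, 2, and 3 had 13.6, 12.0, and 10.1 CPM. RvD1 replicates 1 and 3 were above every vehicle library, and RvD1 replicate 2 was below every vehicle library. The log2 fold change was 0.70 (standard error 0.36), or 1.63-fold with a 95% interval from 0.923 to 2.87 (edgeR's quasi-likelihood test, unadjusted p = 0.0837, Benjamini-Hochberg adjusted p = 0.971). Omitting 1 library at a time gave 0.41 at the lowest, when RvD1 replicate 1 was omitted, and 1.06 at the highest, when RvD1 replicate 2 was omitted, where the unadjusted p was 0.000334 and the adjusted p 0.725 (edgeR). Limma-voom after surrogate variable analysis, the procedure the study names, gave 0.36 where 1 surrogate variable was estimated and removed here (limma, adjusted p = 0.624). These values rest on 580, 241, and 423 counts with RvD1 and on 220, 209, and 186 counts with vehicle.

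On the TPM scale, the Igf1 groups lay closer. The RvD1 libraries held 12.1, 3.66, and 10.4 TPM of Igf1, and the vehicle libraries held 8.61, 4.75, and 3.52 TPM. The ratio of TPM to CPM depends on the transcript length that the quantification assigned to a gene in each library. For Igf1, it was 0.632 in vehicle replicate 1 and between 0.355 and 0.445 in the other libraries, a 1.78-fold range, where the median gene tested had a 1.11-fold range and the 95th percentile was 1.87-fold. The annotation holds 8 coding transcripts of Igf1 that are 510 to 7052 bases long, and a noncoding gene on the opposite strand, Igf1os, overlaps it.

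Igf1 was compared with markers of cells that were to be removed by the sort. In bulk RNA, fewer cells of a type and less RNA per cell cannot be told apart. The libraries ordered by Igf1 CPM were RvD1 replicates 1 and 3, vehicle replicates 1, 2, and 3, and RvD1 replicate 2. The summed level of the 14 fibro-adipogenic and fibroblast markers gave the same order apart from an exchange of vehicle replicates 2 and 3, with 2893, 1309, and 1785 TPM for RvD1 (replicates 1, 2, and 3) and 1657, 1470, and 1512 TPM for the vehicle libraries. Mean TPM was higher with RvD1 for 11 of these 14 markers, where 67.9% of all genes had a difference above 0 on log2(TPM + 1). Of the 12 that could be tested, 1 had an unadjusted p under 0.05, beside 3.47% of all genes. This was Ly6a, at −0.62 on the log2 scale (edgeR's quasi-likelihood test, adjusted p = 0.971). The most abundant of the list were the collagen genes Col3a1 and Col1a2 and the actin-severing protein gene Gsn, which other cells of muscle also express. Pdgfra, which defines fibro-adipogenic cells, averaged 3.23 TPM in RvD1 libraries and 2.20 TPM in vehicle libraries, and 0 of the 14 markers were without counts in every library. In replicate order, Pdgfra had 3.48, 2.67, and 3.55 TPM for RvD1 and 1.57, 2.51, and 2.52 TPM for vehicle. This was not the order of Igf1, since RvD1 replicate 2 exceeded every vehicle library and vehicle replicate 1 was lowest. For the 8 pericyte and smooth muscle markers, the sums were 630, 309.6, and 461 TPM for RvD1 in replicate order. The vehicle libraries had 441, 382, and 338 TPM, so that these sums gave the order of Igf1 over all 6 libraries. Acta2 held most of each sum, at 512, 249.6, and 378 TPM for RvD1 and 365, 315, and 271 TPM for vehicle. It gave the same order alone, whereas Notch3 and Pdgfrb, the next most abundant, did not. The part of fibro-adipogenic cells, fibroblasts, pericytes, or smooth muscle in the Igf1 difference was not tested.

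The 20 leukocyte and macrophage markers were ordered otherwise. Their summed level was 55.6 to 77.5 TPM in RvD1 libraries against 72.0 to 123 TPM in vehicle libraries, led by Lyz2, Cd68, and Laptm5, and 17 of the 20 had a lower mean TPM with RvD1. Of the 18 that could be tested, 5 had an unadjusted p under 0.05, beside 3.47% of all genes, and 0 an adjusted p under 0.05 (edgeR). The groups did not overlap in CPM for 5 of the 18 (27.8%), beside 9.62% of all genes. Ctss had the smallest unadjusted p, at −1.36 on the log2 scale (edgeR, unadjusted p = 0.00101, adjusted p = 0.971). Lyz2, at −1.06 on the log2 scale, had an adjusted p of 0.971, and of 0.0182 when edgeR was run without a filter on low counts. Vehicle replicate 3 had the highest sum (123 TPM) and the lowest Igf1 level of the vehicle libraries. Within the RvD1 group, the sums of 77.5, 55.6, and 57.35 TPM (replicates 1, 2, and 3) followed the order of Igf1, but those of replicates 2 and 3 were close. From replicate 2 to replicate 3, Lyz2 went from 18.4 to 17.55 TPM and Cd68 from 7.2 to 4.87 TPM, whereas Laptm5 went from 5.43 to 7.04 TPM. Ptprc and Adgre1, which define leukocytes and macrophages, averaged 0.310 and 0.597 TPM in the RvD1 group, against 0.637 and 1.12 TPM in the vehicle group, and 0 of the 20 markers were without counts in every library. The part of leukocytes in the Igf1 values was not tested.

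**Figure D3:**
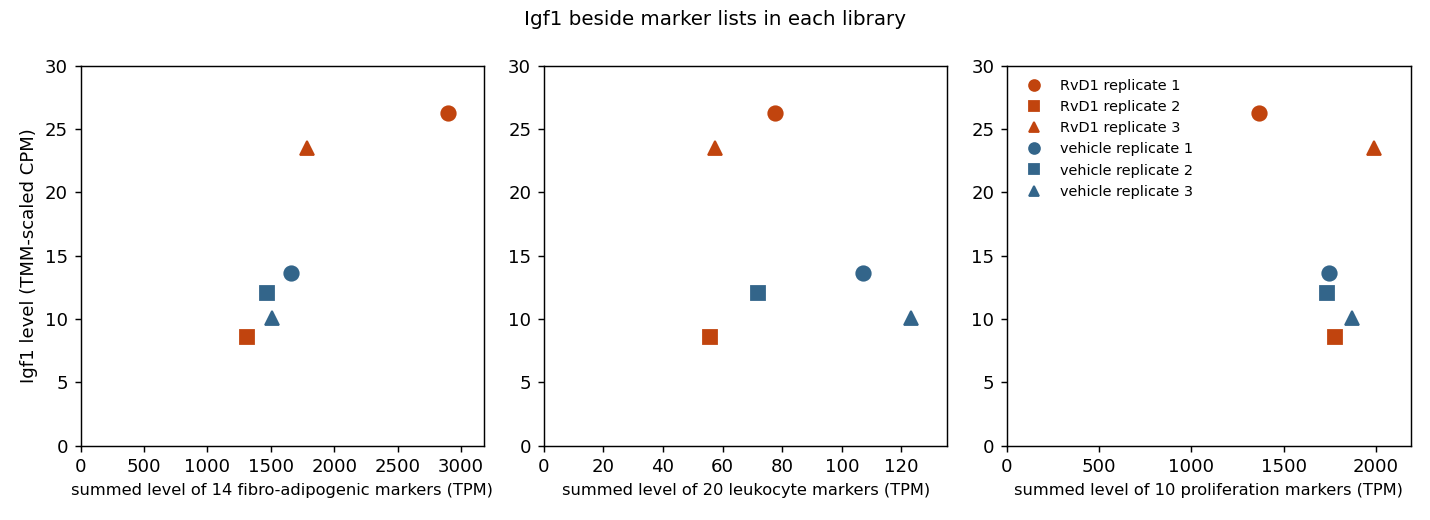
Igf1 level in TMM-scaled CPM (vertical axes) beside the summed TPM of 14 fibro-adipogenic and fibroblast, 20 leukocyte and macrophage, and 10 proliferation markers (horizontal axes), with 1 point per library. RvD1 replicates 1 and 3, at 26.3 and 23.5 CPM, hold the 2 highest fibro-adipogenic sums, whereas the 2 highest leukocyte sums belong to vehicle libraries. Within the RvD1 group, the leukocyte sum is highest in replicate 1, and those of replicates 2 and 3 are close, at 55.6 and 57.35 TPM.

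The genes whose level over the 6 libraries was most like that of Igf1 were Slc22a15, Tmem119, and Adamts6. Pearson's r on log2 CPM was 0.999, 0.993, and 0.991, and Spearman's rho was 1 for each. Without RvD1 replicate 1, r was 0.999, 0.989, and 0.991. With 6 libraries, 214 of the 14493 other genes tested had an r above 0.9, and the values share library, depth, and scaling, so that these coefficients are a description. Tmem119 encodes a membrane protein known from osteoblasts and microglia, and Adamts6 a secreted metalloproteinase.

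Igf1r (chromosome 7, 67952827 to 68233668) encodes the kinase receptor of IGF1. RvD1 replicates 1, 2, and 3 had 25.9, 19.4, and 13.4 CPM, and the vehicle libraries had 20.1, 18.8, and 16.7 CPM. The RvD1 libraries lay on both sides of the vehicle range, with the highest and the lowest level of all. Its log2 fold change was 0.083 with a 95% interval from −0.42 to 0.59 (edgeR's quasi-likelihood test, adjusted p = 0.978), and it was −0.17 without RvD1 replicate 1.

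Insr (chromosome 8, 3122061 to 3279617), the insulin receptor, varied least of the receptors. RvD1 replicates 1, 2, and 3 had 12.3, 10.6, and 10.4 CPM, and the vehicle libraries had 9.66, 10.2, and 10.8 CPM. The groups overlapped by RvD1 replicates 2 and 3 and vehicle replicate 3. The fold was 1.09 with a 95% interval from 0.850 to 1.39 (edgeR's quasi-likelihood test, adjusted p = 0.971). Per length, Insr and Igf1r were at similar levels, with an Insr to Igf1r ratio of TPM between 1.02 and 1.18 in 5 libraries and 2.04 in RvD1 replicate 3, where Igf1r was lowest.

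Igf2r (chromosome 17, 12682406 to 12769664), the receptor that clears IGF2, was the most abundant receptor, at 4.42 to 9.52 times the TPM of Igf1r. Its level was 242, 151, and 169 CPM in the RvD1 libraries, in the order of their replicate numbers, and 210, 158, and 137 CPM in the vehicle libraries. Replicate 1 was highest in both groups. On the log2 scale, the difference was 0.16 with a 95% interval from −0.30 to 0.62 (edgeR's quasi-likelihood test, adjusted p = 0.971) and −0.070 without RvD1 replicate 1. The imprinted noncoding gene Airn overlaps Igf2r on the opposite strand.

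The summed TPM of the 6 binding proteins was 702, 561, and 569 in the RvD1 libraries, in replicate order, and 562, 543, and 517 in the vehicle libraries. Only RvD1 replicate 1 was well above the rest. The makeup of this sum also differed most there, where Igfbp2 held 11.2% of it, against 23.6% to 32.0% in the other 5 libraries. Igfbp7 held 24.1% in that library against 14.2% to 17.6%, Igfbp3 22.1% against 14.5% to 18.4%, and Igfbp4 15.8% against 7.74% to 12.9%.

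Over the 6 libraries, Igfbp2 ran opposite to 4 of the other 5 binding proteins, and to Igfbp7 only with RvD1 replicate 1 included. The genes of each library share its depth and scaling. As a description, Pearson's r on log2 CPM was −0.97 with Igfbp3, −0.93 with Igfbp4, −0.90 with Igfbp6, and −0.87 with Igfbp7, and it was −0.16 with Igfbp5. Over the 5 libraries without RvD1 replicate 1, it was −0.77 with Igfbp3, −0.86 with Igfbp4, −0.42 with Igfbp6, 0.26 with Igfbp7, and −0.35 with Igfbp5. Igf2r, Igfbp3, and Igfbp4 ran together, with r between 0.93 and 0.98 over 6 libraries and between 0.93 and 0.96 over those 5. The promoters of the most opposed pair over 6 libraries, Igfbp2 and Igfbp3, are shown for this reason. They are the 250 bases before a RefSeq start on GRCm38.p6, which for Igfbp2 is the first of 2 starts, read 5′ to 3′ on the strand of the gene, at chr1:72824230-72824479 (plus strand) and chr11:7213924-7214173 (minus strand). Capitals mark matches to the GC box GGGCGG on either strand and to the E-box CANNTG. This general form of the E-box is not particular to myogenic factors such as MyoD, and it reads the same on both strands. TATAAA was searched as well, as was the CCAAT box, on both strands.
Igfbp2: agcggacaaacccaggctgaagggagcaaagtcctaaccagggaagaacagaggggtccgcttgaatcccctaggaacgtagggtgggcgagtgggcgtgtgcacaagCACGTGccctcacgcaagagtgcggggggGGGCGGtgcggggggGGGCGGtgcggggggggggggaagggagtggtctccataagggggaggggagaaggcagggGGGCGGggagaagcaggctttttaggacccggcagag
Igfbp3: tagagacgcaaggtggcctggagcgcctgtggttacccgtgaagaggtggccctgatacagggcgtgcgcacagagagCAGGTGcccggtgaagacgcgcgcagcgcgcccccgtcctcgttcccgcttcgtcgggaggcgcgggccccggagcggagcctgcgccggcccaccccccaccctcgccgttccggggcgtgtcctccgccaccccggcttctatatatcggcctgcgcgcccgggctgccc
The Igfbp2 window shown held 3 matches to GGGCGG and 1 E-box match, the window of its other start (chr1:72825137-72825386) held 0 and 1, and the Igfbp3 window held 1 E-box match. Neither held a match to TATAAA or to the CCAAT box. Among 32817 promoters of the same length, GGGCGG was found in 32.7%, the E-box in 66.2%, the CCAAT box in 33.8%, and TATAAA in 12.4%. GC content was 67.2% for the Igfbp2 window shown, 56.4% for the other, and 73.2% for Igfbp3, where the median promoter had 52.4%.

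Igfbp2 (chromosome 1, 72824503 to 72852474), a binding protein that can also attach to integrins, was the only gene of the 10 with a log2 fold change below 0. The RvD1 libraries, in replicate order, held 48.9, 112, and 92.5 CPM of Igfbp2, and the vehicle libraries 85.5, 106, and 113 CPM. RvD1 replicate 1 was below all other libraries, and RvD1 replicates 2 and 3 lay within the vehicle range. The fitted log2 difference was −0.27 with a 95% interval from −0.86 to 0.32 (edgeR's quasi-likelihood test, adjusted p = 0.971), and it was 0.0089 without RvD1 replicate 1.

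Igfbp5 (chromosome 1, 72857932 to 72874884), which muscle cells secrete as they differentiate, varied least in the RvD1 group. Levels were 503, 532, and 515 CPM in RvD1 replicates 1 to 3, against 508, 505, and 443 CPM in vehicle replicates 1 to 3. Vehicle replicate 3 was below the other 5 libraries, and vehicle replicates 1 and 2 were just above the lowest RvD1 library. The fold was 1.06 with a 95% interval from 0.926 to 1.22, the narrowest of the 10 genes (edgeR's quasi-likelihood test, adjusted p = 0.971). On the TPM scale, Igfbp5 was the 1 gene of the 10 whose groups did not overlap, at 144, 143.8, and 146 TPM in the RvD1 libraries against 139, 132, and 115 TPM in the vehicle libraries. The groups did not overlap in TPM for 11.4% of all genes tested, with RvD1 higher for 8.89%. Igfbp5 lies 5.46 kb from Igfbp2 on the opposite strand with 0 protein-coding genes between them, and their deviations from the mean of all libraries in RvD1 replicate 1 were 0.0078 for Igfbp5 and −0.87 for Igfbp2 in log2 CPM.

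Igfbp3 (chromosome 11, 7206086 to 7213923), the main IGF carrier of blood, was at 215, 122, and 122 CPM in the RvD1 libraries and at 149.8, 130.5, and 114 CPM in the vehicle libraries, in replicate order. RvD1 replicate 1 was above all other libraries, and RvD1 replicates 2 and 3 lay within the vehicle range. The fitted difference was 0.22 in log2 with a 95% interval from −0.28 to 0.71 (edgeR's quasi-likelihood test, adjusted p = 0.971), and it was −0.11 without RvD1 replicate 1.

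Igfbp4 (chromosome 11, 99041244 to 99054392), which is known to inhibit IGF action until it is cleaved by the protease PAPP-A, was at 109, 49.95, and 57.9 CPM in RvD1 replicates 1, 2, and 3. In vehicle replicates 1, 2, and 3, it was at 78.2, 60.2, and 41.9 CPM. Replicate 1 was highest in both groups, and the vehicle range held the other 2 RvD1 libraries. The fitted difference was 0.27 in log2 with a 95% interval from −0.43 to 0.97 (edgeR's quasi-likelihood test, adjusted p = 0.971), and it was −0.16 without RvD1 replicate 1. Pappa, the gene of this protease, had a mean of 11 counts and the related gene Pappa2 of 4.17 counts, too few to be tested.

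Igfbp6 (chromosome 15, 102144362 to 102149511), which prefers IGF2 over IGF1, was at 26.7, 20.1, and 19.6 CPM in the RvD1 libraries and at 22.5, 21.7, and 20.4 CPM in the vehicle libraries, in replicate order. RvD1 replicate 1 was highest and RvD1 replicates 2 and 3 were lowest of all. The fold was 1.03 with a 95% interval from 0.812 to 1.2997 (edgeR's quasi-likelihood test, adjusted p = 0.988), and the log2 fold change was −0.12 without RvD1 replicate 1.

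Igfbp7 (chromosome 5, 77349240 to 77408041), the weak IGF binder found in vessel walls and matrix, had the second largest difference upward. Replicates 1, 2, and 3 of the RvD1 group had 104, 53.8, and 61.8 CPM, and those of the vehicle group had 51.3, 54.4, and 61.7 CPM. RvD1 replicate 1 was far above the rest, and the other 2 RvD1 libraries were close to the vehicle range. The fitted difference was 0.39 in log2 with a 95% interval from −0.12 to 0.90 (edgeR's quasi-likelihood test, unadjusted p = 0.117, Benjamini-Hochberg adjusted p = 0.971), and it was 0.05 without RvD1 replicate 1. The 12 endothelial markers summed to between 22.02 and 30.9 TPM in RvD1 libraries and between 14.4 and 42.8 TPM in vehicle libraries. Their log2 fold change was below 0 for 10 of the 12, with a median of −0.90, and 0 of the 12 had an unadjusted p under 0.05 (edgeR). By mean TPM, 7 of the 12 were lower and 5 were higher with RvD1. Counts were low, with means from 15.3 (Emcn) to 155.5 (Eng) per library. The 8 pericyte and smooth muscle markers summed to 630, 309.6, and 461 TPM in the RvD1 libraries, in replicate order, and to 338 to 441 TPM with vehicle. Their log2 fold change was above 0 for 8 of the 8, with a median of 0.35, beside 53.5% of all genes. Mean TPM was higher with RvD1 for 7 of the 8, where 67.9% of all genes had a difference above 0 on log2(TPM + 1). Of these 8 markers, 2 had an unadjusted p under 0.05, beside 3.47% of all genes, and 0 an adjusted p under 0.05 (edgeR). Acta2, Notch3, and Pdgfrb were the most abundant of them, 0 of the 8 and 0 of the 12 were without counts in every library, and the part of both lists in the Igfbp7 values was not tested.

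These genes also varied between libraries of the same group. RvD1 replicate 1 was the highest of the 6 libraries for 8 of the 10 genes and the lowest for Igfbp2, so that it held an extreme for 9 of 10, beside 60.1% of all genes tested. It was the highest for 30.6% of all genes. The coefficient of variation was larger with RvD1 than with vehicle for 9 of the 10 genes, with Igfbp5 as the exception, and for 69.7% of all genes. It reached 48.8% for Igf1, 44.4% for Igfbp4, and 38.1% for Igfbp2 with RvD1, where the median gene with a mean of at least 100 counts had 12.6%. Replicate 1 was the highest of its group in both groups for 6 of the 10 genes, beside 20.8% of all genes.

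**Figure D4:**
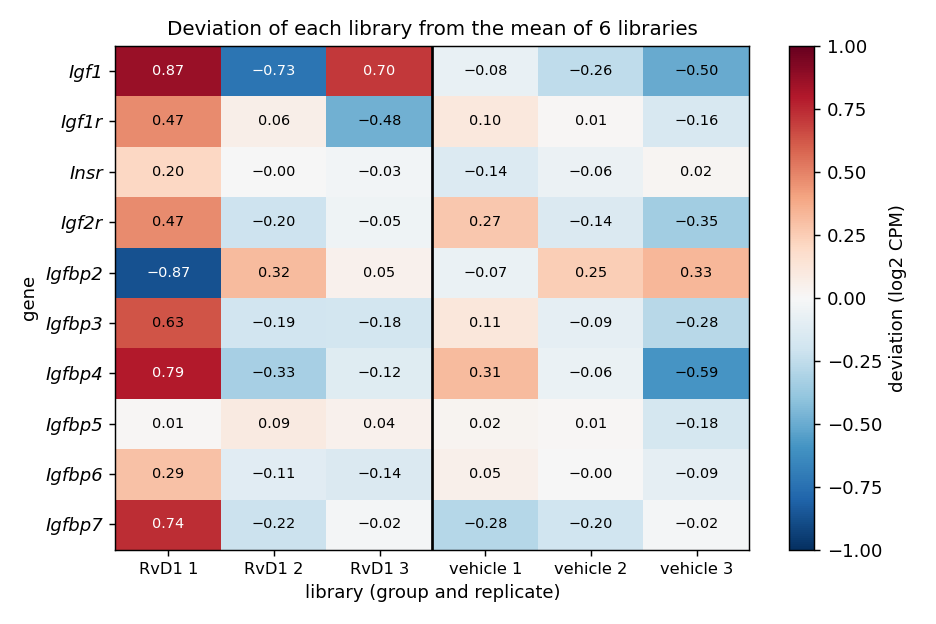
Deviation of each library from the mean of the 6 libraries for each gene, in log2 CPM, with red above and blue below the mean and a black line between the RvD1 and vehicle libraries. RvD1 replicate 1 is high for Igf1 (0.87), Igfbp4 (0.79), and Igfbp7 (0.74) and low for Igfbp2 (−0.87), while Igfbp5 stays between −0.18 and 0.09 in every library.

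Other genes of the IGF pathway were taken by role, as 36 genes that comprise further ligands and carriers, proteases of the binding proteins with their inhibitors, receptor adaptors, negative regulators, kinases, and Igf2 mRNA binding proteins. Of these, 26 had enough counts to be tested and 0 had an adjusted p under 0.05 (edgeR's quasi-likelihood test, smallest adjusted p 0.971). The log2 fold change was above 0 for 18 and below 0 for 8, with a median of 0.08, beside a median of 0.01 over all genes. Without RvD1 replicate 1, the numbers were 15 and 11 and the median was 0.01. Ins1, Ins2, Igfbp1, and Igfbpl1 had 0 counts in every library, which allows a level of up to 0.107 to 0.186 CPM, the level of 3 counts.

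An unadjusted p under 0.05 was found for 1 of the 26 genes, beside 3.47% of all genes (edgeR). This was Htra1, which encodes a secreted protease that can cleave IGFBP5. The RvD1 libraries, in replicate order, had 37.1, 19.6, and 27.0 CPM of Htra1, and the vehicle libraries had 20.1, 19.4, and 17.7 CPM. RvD1 replicates 1 and 3 were above the vehicle libraries, and RvD1 replicate 2 was within their range. Its log2 fold change was 0.55 (standard error 0.21; edgeR's quasi-likelihood test, unadjusted p = 0.0315, Benjamini-Hochberg adjusted p = 0.971), and it was 0.28 without RvD1 replicate 1. Htra1 was singled out after its values were seen.

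Shc1, an adaptor that links the receptors to Ras, was the only gene of the 26 whose groups did not overlap in CPM (3.85%, beside 9.62% of all genes). Shc1 levels were 127, 117, and 113 CPM in the RvD1 libraries and 112, 110.0, and 109 CPM in the vehicle libraries, with a fitted log2 difference of 0.11 (standard error 0.087; edgeR's quasi-likelihood test, adjusted p = 0.971). The highest levels in the list were those of the kinase gene Akt1, with means of 285 ± 24.5 (RvD1) and 270.2 ± 6.19 TPM (vehicle; SD, n = 3 each), and of the receptor-binding inhibitor Grb10, with 198 ± 5.26 and 199.5 ± 25.3 TPM. The adaptor gene Grb2 followed, with 109 ± 7.74 and 105 ± 9.42 TPM. Each of these 3 differences was smaller than the larger SD of its groups.

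Igf2, also named after its values were seen, was the more abundant IGF ligand. Its level was 117, 51.0, and 70.9 TPM in the RvD1 libraries and 85.4, 51.2, and 45.9 TPM in the vehicle libraries, in replicate order, above Igf1 in every library. Replicate 1 was highest in both groups. Its log2 fold change was 0.36 with a 95% interval from −0.35 to 1.07 (edgeR's quasi-likelihood test, adjusted p = 0.971), and it was −0.083 without RvD1 replicate 1.

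**Figure D5:**
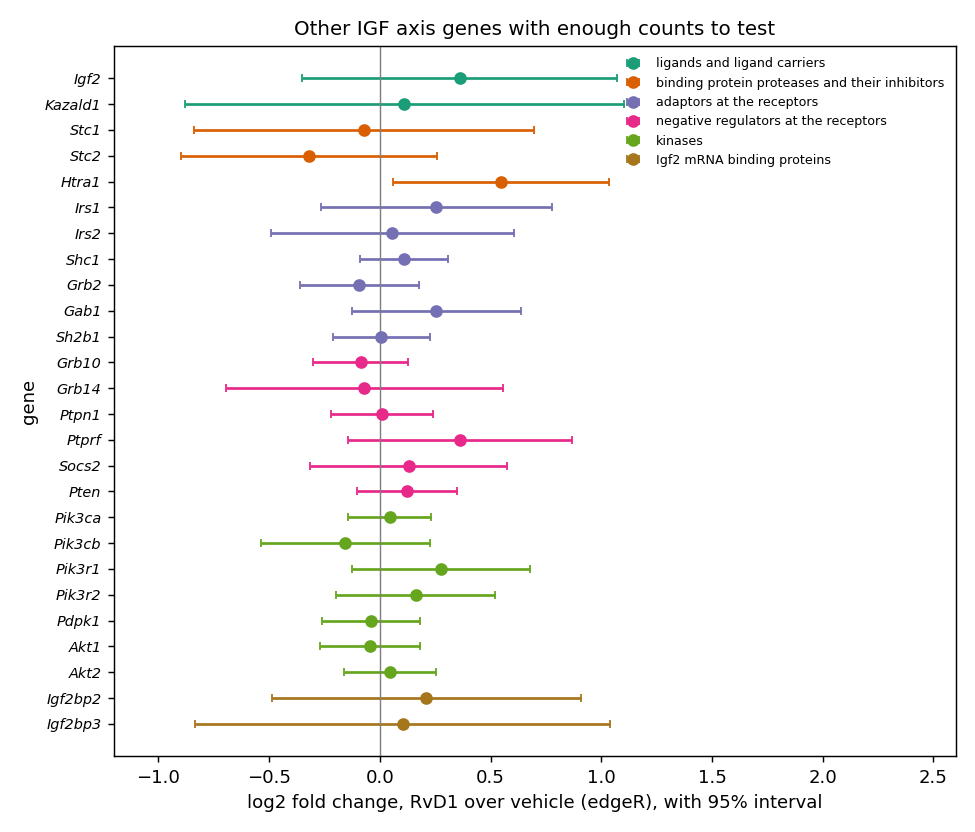
Fitted log2 fold change of RvD1 over vehicle (6 libraries) with 95% intervals from edgeR for the 26 other IGF pathway genes that could be tested, with colors for their roles. The interval of Htra1 (0.06 to 1.03) is the only one that does not include 0, before adjustment for the number of genes tested.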

How the data were processed

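MuSC RNA from 3 RvD1-treated and 3 vehicle-treated mice was sequenced as single-ended reads. Per the labels, the authors aligned reads to mm10 with STAR 2.5.0a and quantified genes with RSEM, whose version and annotation are not given in the sources used here. The deposited expected counts are RSEM estimates not scaled for depth. TPM, as deposited by the authors, adjusts for transcript length and sums to the same total in each library. FPKM was not used, and 1 header line inside each table was removed. The cDNA kit was SMART-Seq v4 with Nextera XT, and counting by strand is not given in the sources used here, so reads of Igf1, Insr, Igf2r, and Igfbp7 cannot be told apart from those of overlapping antisense genes.

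Expected counts were rounded and tested with edgeR 4.0.16 in R 4.3.3 (TMM, filterByExpr by group, quasi-likelihood F test, Benjamini-Hochberg over 14494 genes, threshold 0.05). Standard errors and 95% intervals came from the fold change and its test statistic. Log2 CPM used a prior count of 2. Levels were compared between genes in TPM only. The edgeR, DESeq2, and limma-voom fits were first run on simulated counts with known changes.

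Genes named were the 10 members. Of 36 pathway genes, those past the threshold were to be named or, with fewer than 6, the 3 per direction with the smallest p and no overlap, and the 3 most abundant, as were the 3 most abundant markers per list and the 3 genes most like Igf1. Members and lists were chosen with earlier results of these data known. Mymk and Mymx were matched by identifier, as was Itgam, whose symbol occurs for more than 1 gene. A list of 10 differentiation markers gave summed levels of 2035 to 3510 TPM with RvD1 and 2172 to 2552 TPM with vehicle, led by Myog, Acta1, and Actc1. Positions came from GENCODE M21 on GRCm38 and promoters from RefSeq on GRCm38.p6, where 9 of the 10 members matched.

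Alternatives were DESeq2 1.42.0, other scaling factors, no count filter, robust estimation, a replicate block, limma 3.58.1 with sva 3.50.0, limma on log2(TPM + 1) and log2(TPM + 0.1), and each replicate left out. Correlations without RvD1 replicate 1 were added after seeing the data. The floor of 3 counts covers counting error only, because reads carry no molecular identifiers, whereas the 95% intervals reflect the spread between mice that edgeR estimated.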

Additional observations from a re-analysis of the deposited data

How the results depend on the processing

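The number of the 10 members with an adjusted p under 0.05 was 0 under each of the 15 alternatives, and that of the pathway list was 0 under each as well. At an unadjusted p under 0.05, the members numbered 0 to 2 of 10, where 1.9% to 11.2% of all genes had such a p, among them Igf1 with DESeq2 (unadjusted p = 0.0392, adjusted p = 1.00), with a smallest adjusted p of 0.383 (Igfbp2, limma-voom with 1 surrogate variable removed, the setting with 11.2%). Over the whole table, edgeR without a filter on low counts called 12 genes in place of 0, none of them a member or a pathway gene and 1 of them the leukocyte marker Lyz2 (log2 fold change −1.07, edgeR adjusted p = 0.0182), and 0 to 1 genes were called with 1 replicate left out, where the 1 gene was Pagr1a without RvD1 replicate 3. Directions were followed for 16 genes (the 10 members and the 6 named pathway genes), which gave 240 fold changes under the alternatives. Of these, 223 kept their direction and 17 turned. Igf1, Insr, Igfbp5, Igfbp7, Htra1, Shc1, and Grb10 did not turn. With log2(TPM + 1) and log2(TPM + 0.1), the log2 fold change was −0.051 and −0.068 for Igf1r, 0.065 and 0.066 for Grb2, and 0.075 and 0.075 for Akt1. With limma-voom it was −0.0024 for Igfbp6 and 0.017 for Akt1. With 1 replicate left out, it ranged from −0.17 to 0.29 for Igf1r, from −0.070 to 0.35 for Igf2r, from −0.52 to 0.0089 for Igfbp2, from −0.11 to 0.36 for Igfbp3, from −0.16 to 0.50 for Igfbp4, from −0.12 to 0.12 for Igfbp6, from −0.083 to 0.62 for Igf2, from −0.18 to 0.018 for Grb2, and from −0.092 to 0.044 for Akt1. Each of these 9 turned without RvD1 replicate 1, whose absence leaves 2 libraries in the RvD1 group, and the cause was not tested.

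The groups share replicate numbers, which neither the labels nor the methods tie to a shared litter or day. After the group mean was subtracted, same-numbered libraries correlated across genes at 0.31, −0.00071, and 0.13. RvD1 replicates 1 and 3 correlated best with the vehicle library of their own number, and RvD1 replicate 2 with vehicle replicate 3 (0.17). With 3 libraries per group, these values cannot decide whether the numbers mark pairs. In the main test, the numbers were not taken as pairs. With the replicate number as a block, 0 members, 0 pathway genes, and 0 genes in all had an adjusted p under 0.05, the number at an unadjusted p under 0.05 was 896 in place of 503, and the log2 fold change of Igf1 was 0.58 (edgeR, adjusted p = 0.791). The members had mean counts of 215 to 10073 per library, whereas 10 of the 36 pathway genes had too few counts to be tested.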
